A study of Mus musculus with 5 samples.

Results

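The 6 genes described here encode the mouse receptors for the constant part of immunoglobulin G: the activating receptors Fcgr1, Fcgr3 and Fcgr4, the inhibitory receptor Fcgr2b, the common gamma chain Fcer1g and the neonatal Fc receptor heavy chain Fcgrt. They were chosen by symbol from the 49671 genes of the deposited FPKM table (fragments assigned to a gene, divided by its length in kilobases and by the size of the library), and all 6 were also in the count table of 24984 genes. RNA sequencing covered CD45hi monocytes (2 libraries) and CD45lo microglia (3 libraries) sorted from demyelinated lesions of the corpus callosum at 10 days post-lesion (dpl). Every library came from wild-type C57BL/6J male mice aged 10 weeks that had received 2 µl of 1% lysolecithin (LPC), a toxin that strips myelin locally. Both populations were CD11b+ Ly6G- CD3-, and the sample labels call the CD45hi cells macrophages derived from monocytes. Before staining, the cells were incubated with an antibody that binds the proteins of Fcgr3 and Fcgr2b. The replicate numbers are not shared between the populations, and the libraries are numbered here in the order of those numbers. The study counts mice as the replicates of this sequencing, whereas the labels tie no library to an animal, so p-values measure the spread between these libraries.

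Activating Fc gamma receptors bind antibody-coated targets and signal through the immunoreceptor tyrosine-based activation motif (ITAM) of the gamma chain, which they also need to reach the cell surface in mice. Fcgr2b carries its own inhibitory motif (ITIM) and recruits phosphatases that damp this signal, so the balance between both kinds sets the threshold of a phagocyte for immune complexes. Fcgrt pairs with beta-2-microglobulin (B2m), binds immunoglobulin G in acidic endosomes and returns it to the cell surface.

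The libraries held 3417150 and 6514611 counts in monocytes, against 6633766, 9021700 and 5890081 counts in microglia. At least 10 counts were reached by 1392 genes in monocyte library 1 and by 4230 in library 2, against 5994 to 11653 genes across microglia. The factors of the trimmed mean of M values (TMM) were 0.0911 and 0.617 in monocytes, against 1.72 to 3.75 in microglia. The median log2 fold change of monocytes over microglia over all genes tested was -1.11 with these factors and -4.74 with library totals alone, so the scaling sets the direction of several members below. The 10 microglia markers all had counts in every library, and their summed level was 16150 to 25750 CPM (counts scaled to a common library size) in monocytes, against 12020 to 15780 CPM in microglia. Sparc gave most of that sum in monocytes, whereas Sall1 had 20 and 49 counts in monocytes, against 7595, 2208 and 1665 counts in microglia. Of the 12 classical monocyte markers, Ccr2 had 0 counts in both monocyte libraries, against 12, 52 and 0 counts in microglia. Ly6c1, Ly6c2 and Chil3 were at 0 in all 5 libraries, so these defining markers were not detected. Other genes of the list had counts, among them Cd44 with 531 and 559 counts in monocytes, against 164, 79 and 1 counts in microglia. Fn1 had 11241 and 1189 counts in monocytes, against 1865, 627 and 69 counts in microglia, and Ifitm3 had 30283 and 1616 counts in monocytes, against 1694, 1512 and 12 counts in microglia. The summed monocyte markers reached 14650 and 622 CPM in monocytes, against 13.9 to 566 CPM in microglia, and Vcan had 8006 and 0 counts in monocytes, against 12, 2 and 0 counts in microglia. The CD45hi cells are called monocytes here by their gate only. For this gate the paper reports that every CD45hi cell was reporter-positive in lesions of Ccr2 reporter mice. By flow cytometry it detected Ly6C protein on part of the CD45hi cells. Their proportion was lower in lesions of mice lacking Ccr2.

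Fcgr2b, Fcgr4, Fcgr3 and Fcer1g lie on mouse chromosome 1 within a span of 275.7 kb (GRCm38, GENCODE vM21). Fcgr2b is at chr1:170958617-170976547 on the minus strand, Fcgr4 at chr1:171018920-171029761 on the plus strand, Fcgr3 at chr1:171051174-171064935 on the minus strand and Fcer1g at chr1:171229572-171234365 on the minus strand. Fcgr1 is at chr3:96282909-96293969 and Fcgrt at chr7:45092990-45103851, both on the minus strand. Antisense transcripts overlap Fcgr2b (Gm38204) and Fcgrt (Gm45669). Gm38204 had 0 and 0 counts in monocytes, against 0, 1 and 1 counts in microglia. Gm45669 had 0 and 0 counts in monocytes, against 50, 1 and 0 counts in microglia. The use of strand in counting is not given in the sources used here. The annotated transcripts of Fcgrt held no stretch of 50 or 100 bases found in another gene on either strand. Those of Fcgr2b held stretches of 100 bases also found in other genes, Gm38204 among them, so reads inside these may not have been told apart.

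Fcgr3 and Fcgr2b are near copies over their extracellular part, which bears on how their reads were told apart. Their coding sequences (801 and 1020 bases) were identical at 86.7% of 782 aligned bases, while every other pair of the 4 receptors was identical at 64.1% to 67.3%. The longest run common to both covers bases 263 to 391 of the Fcgr3 coding sequence and bases 278 to 406 of that of Fcgr2b. It is printed because read pairs wholly inside it cannot be given to either gene (GENCODE vM21, in the reading direction of the genes).
Fcgr3 and Fcgr2b: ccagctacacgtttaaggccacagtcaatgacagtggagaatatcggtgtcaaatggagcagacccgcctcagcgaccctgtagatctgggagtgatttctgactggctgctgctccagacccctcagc
Of the distinct stretches of 100 bases in their annotated transcripts, 44 were in both genes, which is 2.54% of those of Fcgr3 and 0.75% of those of Fcgr2b. A further 3.54% of those of Fcgr2b were also in transcripts of other genes. Fcgr1, Fcgr4, Fcer1g and Fcgrt held no stretch of 100 bases found in any other gene.

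The promoters of the 3 activating receptors are printed because these genes differed in their pattern over the libraries, and that of Fcgrt because, like Fcgr1, it was highest in monocyte library 1 and lowest in monocyte library 2. Each is 250 bases before and 50 after a start listed by RefSeq (GRCm38.p6), in the direction of the gene. All 6 members matched an entry. The printed Fcgr3 window lies inside the GENCODE span given above, away from the start of that span. Fcgr3 had a second RefSeq entry, chr1:171059345-171059644, which is not printed and also held TTCCTC. Capitals mark the interferon gamma activated site TTCNNNGAA, which is its own reverse complement in its fixed letters, and the core GAGGAA bound by PU.1, a factor that myeloid cells need, searched on both strands.
Fcgr1 (chr3:96293920-96294219, minus strand): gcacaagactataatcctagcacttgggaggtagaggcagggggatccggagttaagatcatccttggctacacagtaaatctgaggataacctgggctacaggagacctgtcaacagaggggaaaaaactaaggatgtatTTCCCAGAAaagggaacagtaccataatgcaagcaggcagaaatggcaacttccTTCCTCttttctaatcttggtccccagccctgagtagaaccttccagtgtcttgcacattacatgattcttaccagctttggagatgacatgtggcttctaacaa
Fcgr3 (chr1:171059354-171059653, minus strand): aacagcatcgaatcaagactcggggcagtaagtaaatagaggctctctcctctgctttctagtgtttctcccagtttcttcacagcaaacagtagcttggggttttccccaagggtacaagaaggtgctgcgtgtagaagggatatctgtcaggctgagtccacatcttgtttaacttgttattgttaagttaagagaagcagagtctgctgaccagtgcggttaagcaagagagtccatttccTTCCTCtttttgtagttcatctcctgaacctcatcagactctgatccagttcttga
Fcgr4 (chr1:171018676-171018975, plus strand): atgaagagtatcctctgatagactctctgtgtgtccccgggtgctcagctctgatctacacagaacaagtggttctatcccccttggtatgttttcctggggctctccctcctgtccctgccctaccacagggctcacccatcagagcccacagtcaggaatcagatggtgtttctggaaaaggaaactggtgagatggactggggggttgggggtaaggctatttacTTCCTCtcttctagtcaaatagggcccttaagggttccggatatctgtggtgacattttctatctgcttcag
Fcgrt (chr7:45103773-45104072, minus strand): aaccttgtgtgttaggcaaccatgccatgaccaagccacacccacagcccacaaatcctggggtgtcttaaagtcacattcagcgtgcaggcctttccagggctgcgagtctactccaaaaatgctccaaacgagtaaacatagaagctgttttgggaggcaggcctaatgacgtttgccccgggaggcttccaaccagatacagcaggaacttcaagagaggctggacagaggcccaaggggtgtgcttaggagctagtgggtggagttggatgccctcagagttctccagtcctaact
The GAGGAA core was found, read as TTCCTC in the direction of the gene, at bases 196 to 201 of the Fcgr1 window, 245 to 250 of that of Fcgr3 and 229 to 234 of that of Fcgr4. These letters were not in the windows of Fcgr2b, Fcer1g and Fcgrt. Over all 27025 promoters of the same length, 28.3% held the core on either strand. TTCNNNGAA was found at bases 142 to 150 of the Fcgr1 window and in no other member, and 8.5% of all promoters held it. A match is a description of these letters and not a binding site.

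Neither population had a member called by edgeR's quasi-likelihood test with Benjamini-Hochberg adjustment over 10105 genes left by its filter on low expression, all 6 members among them. At an adjusted p under 0.05, 0.0594% of all genes were higher in monocytes and 0% were lower. At an unadjusted p under 0.05, 2 members were higher in monocytes (Fcgr1 and Fcgrt) and 0 lower, where 8.52% of all genes were higher and 3.35% lower. DESeq2 called the same 2 members higher, with 9.77% of all genes called higher and 0.99% lower, and limma-voom called 0 members, with 0.317% of all genes called higher and 0% lower. By CPM, 2 members (Fcgr4 and Fcer1g) had both monocyte values below all microglia values and 0 had both above, where 48% and 0.673% of all genes did. The lower members are thus no more frequent than among all genes. For Fcgr1 and Fcgrt, 1 monocyte library lay above and the other below every microglia library, which held for 10.7% of all genes. In these bulk libraries, fewer cells that express a gene and less of its RNA per cell cannot be told apart.

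**Figure D1:**
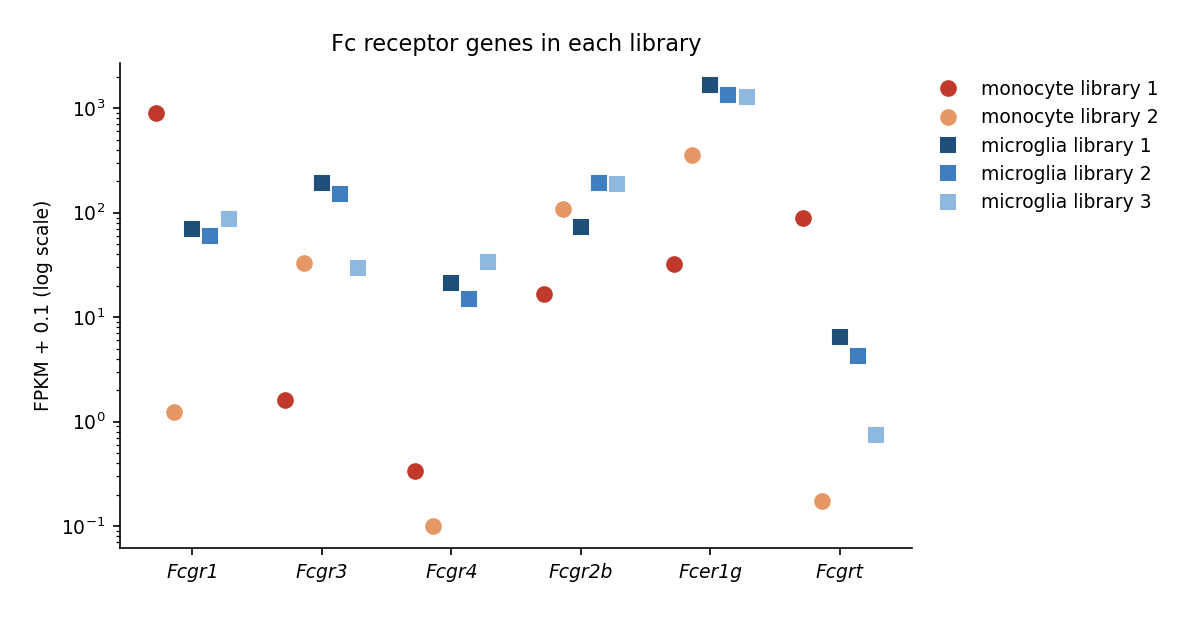
FPKM + 0.1 on a log scale for the 6 members in each library (circles, monocytes; squares, microglia). The monocyte libraries lie on opposite sides of the microglia for Fcgr1 and Fcgrt, and both lie below them for Fcgr4 and Fcer1g.

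Fcgr1 encodes the high-affinity receptor (CD64), which can bind monomeric immunoglobulin G and is widely used to mark macrophages. It had 895 and 1.13 FPKM in monocytes (7919 and 19 counts), against 70.4, 59.3 and 86.0 FPKM in microglia (1209, 1385 and 1312 counts). Microglia were nearly even, whereas monocyte library 1 was above and monocyte library 2 below all of them. Fcgr1 averaged 448 ± 632 FPKM over monocyte libraries (SD, n = 2) and 71.9 ± 13.4 FPKM over microglia libraries (SD, n = 3). The log2 fold change was 7.35 with a standard error of 2.84, and the adjusted p from edgeR was 0.220. With library totals it was 2.64 and with limma-voom 1.67 (limma-voom adjusted p = 1.00). The TMM value became -4.34 on leaving out monocyte library 1 (edgeR adjusted p = 0.513) and 7.33 on leaving out monocyte library 2 (edgeR adjusted p = 7.21e-04). The call and the direction therefore rested on 1 library. Between the monocyte libraries Fcgr1 differed 795-fold in FPKM, and of the 5953 tested genes with a count in both, 0.538% had a higher ratio of library 1 over library 2. In monocyte library 1 it ranked 38th by FPKM of 9972 genes with a value above 0, and in monocyte library 2 it ranked 3538th of 9942.

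Fcgr3 encodes the low-affinity activating receptor (CD16), which binds immune complexes. It had 1.52 and 32.6 FPKM in monocytes (9 and 369 counts), against 191.6, 151.1 and 29.2 FPKM in microglia (2207, 2366 and 299 counts). Monocyte library 2 lay just above microglia library 3, so the populations overlapped. Microglia libraries themselves differed 6.55-fold, and 40.6% of the 8669 tested genes with a count in all of them differed by less. Fcgr3 averaged 17.1 ± 22.0 FPKM over monocyte libraries (SD, n = 2) and 124 ± 84.5 FPKM over microglia libraries (SD, n = 3). The log2 fold change was -0.23 with a standard error of 1.86 (edgeR adjusted p = 0.960), and it was 0.69 with RLE factors and -2.86 with library totals, so no direction could be given.

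Fcgr4 encodes an activating receptor of mice that binds IgG2a and IgG2b complexes. It had 0.233 and 0 FPKM in monocytes (1 and 0 counts), against 21.4, 14.9 and 33.5 FPKM in microglia (178, 169 and 248 counts). It was the only receptor gene at or near 0 in both monocyte libraries, and the populations did not overlap. The count of 0 in monocyte library 2 allows a level of up to 0.367 FPKM (3 counts), for counting error only. The paper reports amplified cDNA and far fewer monocytes than microglia per mouse. Loss of a transcript before sequencing was not tested. Summed over libraries, Fcgr4 had 1 count of 9931761 in monocytes and 595 counts of 21545547 in microglia, a ratio of 0.00365 (95% exact binomial interval 9.22e-05 to 0.0204, for counting error only). The fitted log2 fold change was -4.02 with a standard error of 2.76 (edgeR adjusted p = 0.527), and it was negative under all 12 alternatives, between -10.72 and -3.01. None of them called it at an adjusted p under 0.05, and the lowest adjusted p among them was 0.119.

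Fcgr2b encodes the inhibitory receptor (CD32B), the only Fc gamma receptor of mice with an ITIM. It had 16.7 and 108.5 FPKM in monocytes (330 and 4093 counts), against 73.7, 193.4 and 189.6 FPKM in microglia (2831, 10101 and 6466 counts). Monocyte library 2 lay between microglia libraries 1 and 3, so the populations overlapped. Fcgr2b averaged 62.6 ± 64.9 FPKM over monocyte libraries (SD, n = 2) and 152 ± 68.0 FPKM over microglia libraries (SD, n = 3). The log2 fold change was 1.43 with a standard error of 2.06 (edgeR adjusted p = 0.736), and it was -1.28 with library totals. After division by the TMM factors, Fcgr2b had 1060 and 1018 CPM in monocytes, against 113.7, 407.3 and 636.8 CPM in microglia. On that scale both monocyte libraries lay above every microglia library, which held for 5% of all genes, so the order of the populations was set by the scaling. B cells also express Fcgr2b, and their defining markers Cd79a and Pax5 were at 0 in every library. Cd79b had 1 and 2 counts in monocytes, against 124, 1 and 1 counts in microglia. Cr2 had 0 and 2 counts in monocytes, against 18, 51 and 69 counts in microglia. The 8 B cell markers summed to 0.768 to 0.878 CPM in monocytes, against 5.76 to 21.4 CPM in microglia.

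Fcer1g encodes the common gamma chain, the ITAM adaptor of the 3 activating receptors. It had 32.1 and 353 FPKM in monocytes (96 and 2011 counts), against 1669, 1337 and 1282 FPKM in microglia (9676, 10546 and 6598 counts). Both monocyte libraries were below every microglia library in FPKM and in CPM. Fcer1g averaged 193 ± 227 FPKM over monocyte libraries (SD, n = 2) and 1429 ± 209 FPKM over microglia libraries (SD, n = 3), where it ranked 15th to 22nd by FPKM. Its microglia libraries differed 1.30-fold, and 1.71% of the 8669 genes differed by less. The log2 fold change was -0.27 with a standard error of 2.06 (edgeR adjusted p = 0.958), -2.89 with library totals and 0.37 with RLE factors. After division by the TMM factors it had 308.3 and 500.1 CPM in monocytes, against 388.6, 425.2 and 649.8 CPM in microglia, and the populations overlapped. By TMM-scaled CPM, 1 member (Fcgr4) was lower in both monocyte libraries, where 21.3% of all genes were.

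Fcgrt had 89.5 and 0.0730 FPKM in monocytes (643 and 1 counts), against 6.31, 4.11 and 0.646 FPKM in microglia (88, 78 and 8 counts). It was the least abundant member in every microglia library and the member next to Fcgr1 in monocyte library 1. Fcgrt averaged 44.8 ± 63.2 FPKM over monocyte libraries (SD, n = 2) and 3.69 ± 2.86 FPKM over microglia libraries (SD, n = 3). The log2 fold change was 8.68 with a standard error of 2.59, an unadjusted p of 7.91e-04 and an adjusted p of 0.105 from edgeR. With library totals it was 3.60 and with limma-voom 1.76 (limma-voom adjusted p = 1.00). The TMM value became -3.55 on leaving out monocyte library 1 (edgeR adjusted p = 0.625) and 8.70 on leaving out monocyte library 2 (edgeR adjusted p = 9.24e-05), so here too 1 library set the direction and the call. The ratio of monocyte library 1 over library 2 was 1226 in FPKM, against 1 count in library 2, and 0.37% of the 5953 genes had a higher ratio.

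**Figure D2:**
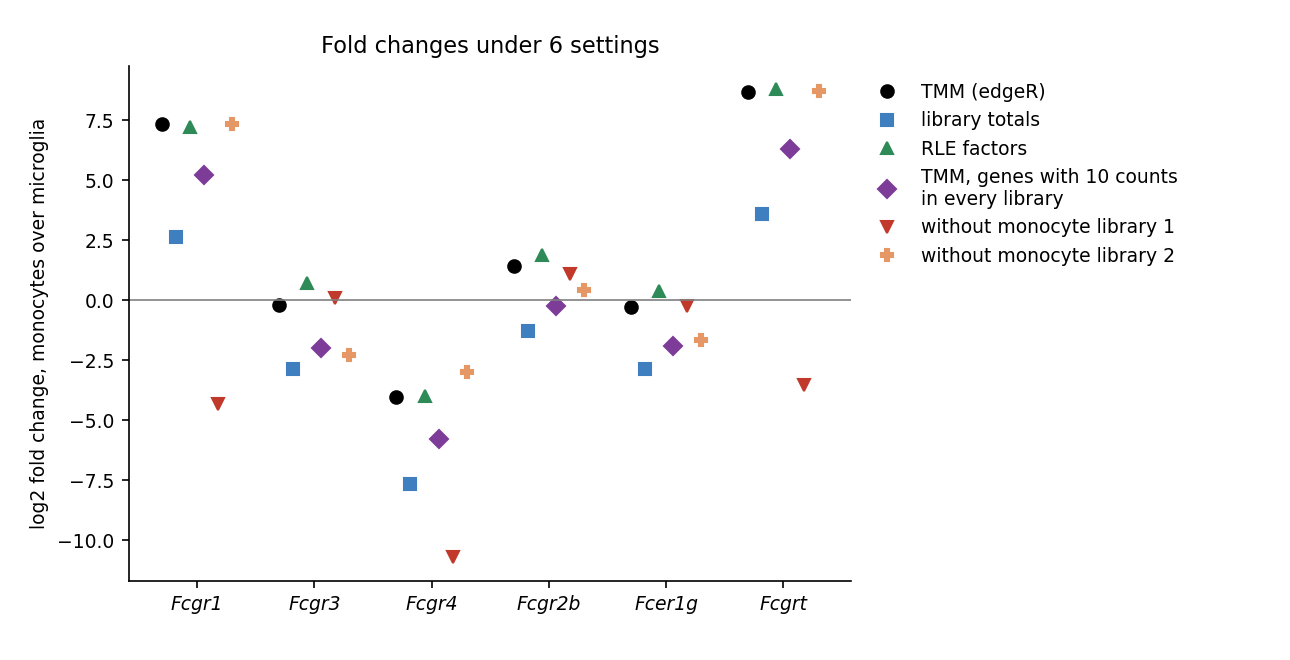
Log2 fold change of monocytes over microglia for each member under 6 settings of edgeR. Fcgr4 stays below 0 throughout, Fcgr1 and Fcgrt drop below 0 without monocyte library 1, and Fcgr3, Fcgr2b and Fcer1g fall on either side of 0 by the scaling.

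The order of the members by FPKM differed between the monocyte libraries. It was Fcgr1, Fcgrt, Fcer1g, Fcgr2b, Fcgr3 and Fcgr4 in library 1, and in library 2 it was Fcer1g, Fcgr2b, Fcgr3, Fcgr1, Fcgrt and Fcgr4. In microglia the order by mean was Fcer1g (1429 FPKM), Fcgr2b (152), Fcgr3 (124), Fcgr1 (71.9), Fcgr4 (23.3) and Fcgrt (3.69). Fcer1g stood first and Fcgrt last in every microglia library, and Fcgr1 was above Fcgr4 in each. Fcgr2b and Fcgr3 changed places between microglia libraries 1 and 2, Fcgr3 was below Fcgr1 and Fcgr4 in library 3, and Fcgr2b (73.7 FPKM) was close to Fcgr1 (70.4 FPKM) in library 1, so these neighbours did not differ beyond the spread.

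The 4 receptor transcripts summed to 914 and 142 FPKM in monocytes, against 357, 419 and 338 FPKM in microglia. Fcgr1 made up 97.98% and 0.792% of that sum in monocytes, against 19.7%, 14.2% and 25.4% in microglia. Fcgr2b made up 1.83% and 76.3% in monocytes, against 20.6%, 46.2% and 56.0% in microglia. Monocyte library 1 thus held almost only Fcgr1, and monocyte library 2 mostly Fcgr2b. Fcgr3 made up 0.166% and 22.9% in monocytes, against 53.7%, 36.1% and 8.64% in microglia. Fcgr4 made up 0.0255% and 0% in monocytes, against 5.98%, 3.56% and 9.91% in microglia. Of the counts of the 4 receptors, Fcgr1 took 95.9% in monocyte library 1 (95% exact binomial interval 95.4% to 96.3%) and 0.424% in monocyte library 2 (0.255% to 0.661%). These intervals cover counting error only, and the paper reports amplified cDNA and far fewer monocytes than microglia per mouse. Fcgr4 took 0 of 4481 of these counts in monocyte library 2, which allows a share of up to 0.0669%.

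**Figure D3:**
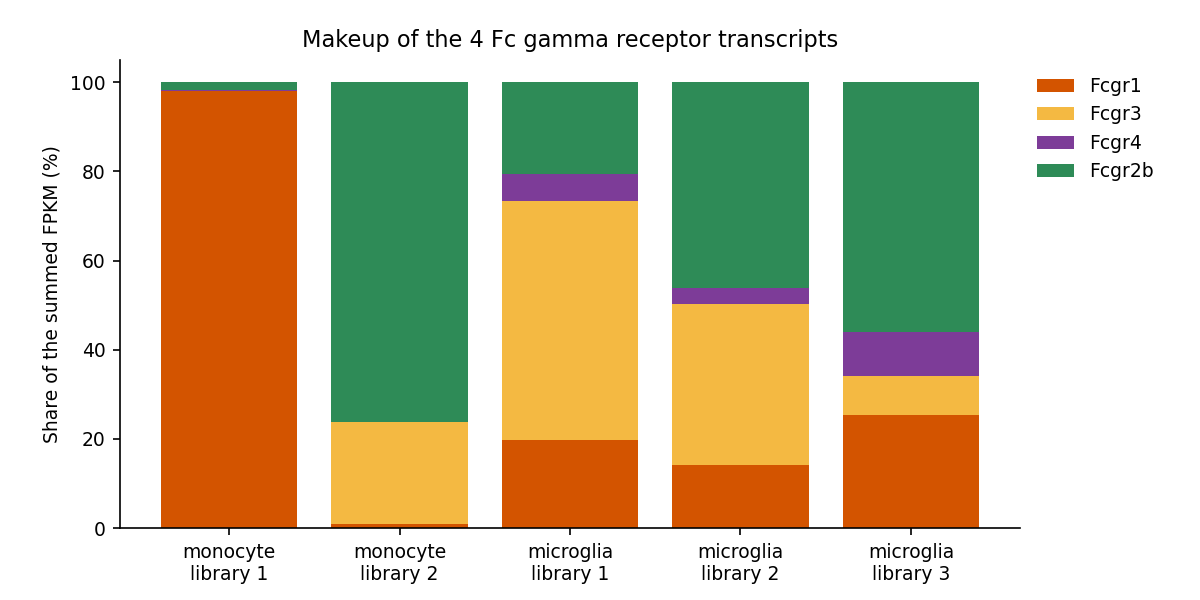
Share of the summed FPKM of the 4 Fc gamma receptor genes taken by each, per library. Fcgr1 fills 97.98% of monocyte library 1 and Fcgr2b 76.3% of monocyte library 2, whereas each microglia library holds all 4.

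The balance between activating and inhibitory receptors was taken as the FPKM of Fcgr1, Fcgr3 and Fcgr4 summed over that of Fcgr2b, each plus 1. This ratio was 50.8 and 0.317 in monocytes, against 3.81, 1.16 and 0.786 in microglia. The monocyte libraries lay on either side of the microglia. The log2 ratio averaged 2.01 ± 5.18 over monocyte libraries (SD, n = 2) and 0.60 ± 1.18 over microglia libraries (SD, n = 3), a difference of 1.41. An exact two-sided permutation test of the library labels, with 10 arrangements, gave p = 0.80, and this design cannot go below 0.10. The difference was -2.26 on leaving out monocyte library 1.

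The activating receptors over the gamma chain they need gave a ratio of 27.1 and 0.0981 in monocytes, against 0.170, 0.169 and 0.117 in microglia. Monocyte library 2 lay just below microglia library 3, and monocyte library 1 had many times more receptor than gamma chain transcript. The log2 ratio averaged 0.71 ± 5.73 over monocyte libraries (SD, n = 2) and -2.74 ± 0.31 over microglia libraries (SD, n = 3), a difference of 3.44 (exact two-sided permutation p = 0.40). On leaving out monocyte library 1 it was -0.61.

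Fcgrt over its light chain B2m, both plus 1 FPKM, gave 0.0116 and 1.32e-04 in monocytes, against 0.00131, 5.60e-04 and 4.93e-04 in microglia. B2m had 7797 and 8115 FPKM in monocytes, against 5597, 9135 and 3339 FPKM in microglia, so it far exceeded Fcgrt in every library, as a partner shared with all class I molecules. The log2 ratio differed by 0.80 between the populations (exact two-sided permutation p = 0.80), with a mean of -9.66 ± 4.57 over monocyte libraries (SD, n = 2) and -10.46 ± 0.76 over microglia libraries (SD, n = 3). It was -2.43 on leaving out monocyte library 1.

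**Figure D4:**
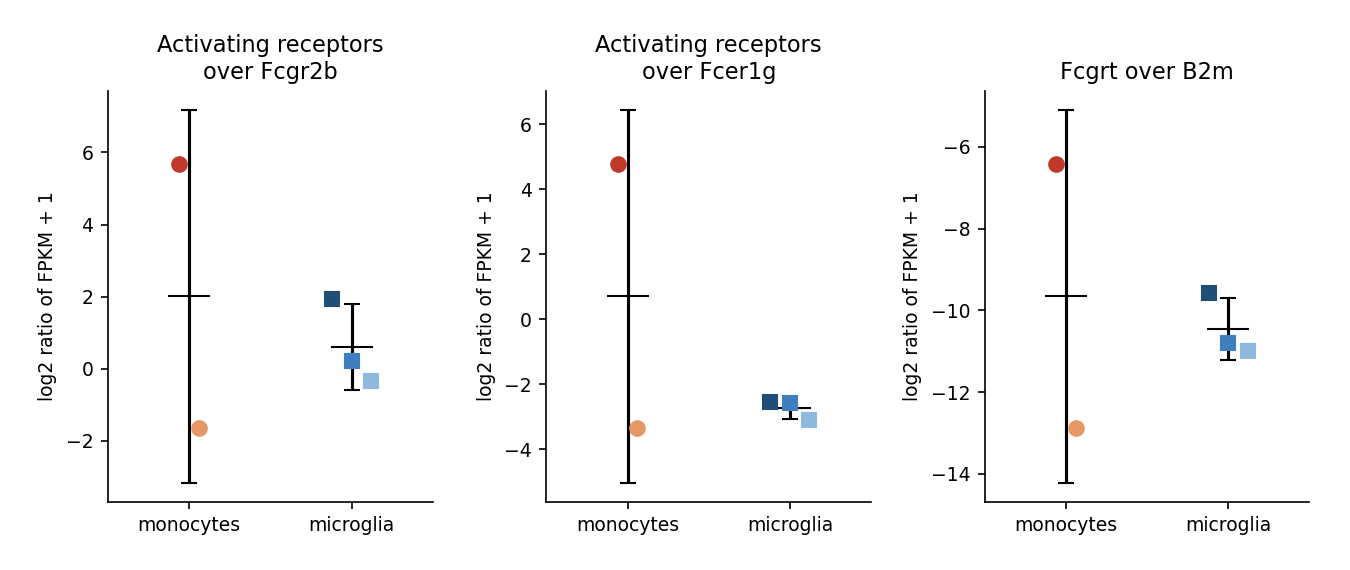
Log2 ratios of FPKM + 1 in each library (points), with the mean and SD of each population (bar and whiskers; monocytes n = 2, microglia n = 3). In each panel monocyte library 1 is above and monocyte library 2 below all microglia libraries.

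Other genes of the pathway were read from 6 lists of 102 genes in all, of which 69 passed the expression filter. With edgeR, 0 of them were called in either direction, and at an unadjusted p under 0.05, 5 were higher and 2 lower in monocytes, where 8.52% and 3.35% of all genes were. Of the 69, 37 were lower in both monocyte libraries by FPKM and 2 were higher (Rac1 and Tgfb1), where 48% and 0.673% of all genes were by CPM, which orders the libraries in the same way. DESeq2 called 8 of them higher and 1 lower, where 9.77% and 0.99% of all genes were, so the calls were near the background.

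Of the 12 immunoglobulin genes listed, which include the IgG chains that these receptors bind and other classes, 2 were tested, and neither is of the IgG class. Ighm, the heavy chain of IgM, had 4.03 and 280.6 FPKM in monocytes, against 247.6, 254.0 and 228.3 FPKM in microglia. Ighd, the heavy chain of IgD, had 0 and 0.485 FPKM in monocytes, against 20.3, 19.7 and 11.4 FPKM in microglia. The IgG heavy chains Ighg1, Ighg2b, Ighg2c and Ighg3 and the light chain Igkc were at 0 in all 5 libraries. Thus no IgG heavy chain transcript was detected, at floors of 3 counts that came to 0.333 to 0.878 CPM.

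Of 12 other Fc receptor genes, 2 were tested. Fcrls, an Fc receptor-like gene of microglia, had 12.3 and 235 FPKM in monocytes, against 589, 285 and 329 FPKM in microglia. Trim21, a cytosolic Fc receptor, had 0.0788 and 0.0413 FPKM in monocytes, against 11.2, 13.5 and 0.183 FPKM in microglia. By FPKM both were lower in both monocyte libraries, although with TMM the log2 fold change of Fcrls was 0.78, and neither was called (edgeR adjusted p = 0.861 for Fcrls and 0.565 for Trim21). The alpha and beta chains of the IgE receptor, Fcer1a and Ms4a2, which share the gamma chain in mast cells, were at 0 in all libraries, as were 7 of the 8 mast cell and basophil markers.

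Among the 10 partners of the gamma chain and related adaptors, 3 were tested. Tyrobp, an ITAM adaptor like Fcer1g, had 796 and 938 FPKM in monocytes, against 1491, 531 and 181.5 FPKM in microglia. Per length, Tyrobp was thus above Fcer1g in both monocyte libraries (32.1 and 353 FPKM of Fcer1g), whereas Fcer1g was above Tyrobp in every microglia library. Its log2 fold change was 4.47 with a standard error of 2.34 (edgeR adjusted p = 0.430, DESeq2 adjusted p = 0.0057). Hcst, the DAP10 adaptor, had 0 FPKM in both monocyte libraries, against 21.7, 3.38 and 0.705 FPKM in microglia. By library totals it was at least 19.8-fold lower in monocytes, against a floor of 3 counts over the group. In log2 this limit was -4.31, not beyond the median of -4.74 for all genes tested with library totals. That limit covers counting error only. It was 5.55-fold on leaving out microglia library 1, which held 104 counts, against 22 and 3 in the other microglia libraries. Cd247, the zeta chain, had 0 counts in monocytes, against 61, 7 and 0 counts in microglia, and the lectin receptors Clec4d and Clec4n were at 0 throughout.

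Of the 33 genes of ITAM signalling, 31 were tested, with a median log2 fold change of -0.86, where that of all genes was -1.11. Rac1, a GTPase of actin remodelling, had 1531 and 293 FPKM in monocytes, against 135, 192 and 191 FPKM in microglia, and both monocyte libraries were above every microglia library. Cdc42, a GTPase of the phagocytic cup, had 476 and 80.7 FPKM in monocytes, against 47.1, 68.2 and 100.6 FPKM in microglia. Malt1, which acts with Bcl10 downstream of ITAM receptors, had 0 and 0.121 FPKM in monocytes, against 2.23, 3.52 and 48.3 FPKM in microglia. Bcl10 had 0 and 0.168 FPKM in monocytes, against 16.1, 12.6 and 9.71 FPKM in microglia. By log2 fold change these were 6.90 for Rac1, 6.39 for Cdc42, -6.03 for Malt1 and -4.55 for Bcl10 (edgeR adjusted p = 0.293, 0.266, 0.280 and 0.432 in that order). The adaptor Grb2 had 0 and 37.6 FPKM in monocytes, against 21.1, 14.8 and 0.582 FPKM in microglia. Rac2 had 0.193 and 29.3 FPKM in monocytes, against 24.6, 10.3 and 1.85 FPKM in microglia, and for both genes monocyte library 2 was the highest and monocyte library 1 the lowest.

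Of the 16 genes of inhibitory signalling, 13 were tested, with a median log2 fold change of -0.47. Inpp5d, the phosphatase SHIP1 that Fcgr2b recruits, had 37.1 and 7.88 FPKM in monocytes, against 120, 30.6 and 67.9 FPKM in microglia. Csk, a kinase that restrains Src kinases, had 0 and 78.2 FPKM in monocytes, against 12.2, 4.18 and 0.0909 FPKM in microglia. Lilrb4a, an ITIM receptor, had 0.109 and 224 FPKM in monocytes, against 14.7, 53.6 and 20.4 FPKM in microglia. For Csk and Lilrb4a monocyte library 2 was the highest of all 5 libraries and monocyte library 1 the lowest. Cd300lf, another ITIM receptor, had 0 FPKM in both monocyte libraries, against 2.61, 2.35 and 15.1 FPKM in microglia. By library totals it was at least 101-fold lower in monocytes, against the same floor. In log2 this limit was -6.66, where the median of all genes tested with library totals was -4.74. That limit covers counting error only. It was 41.9-fold on leaving out microglia library 3, which held 459 of the 657 counts. Ptpn22 had 0 and 0.0227 FPKM in monocytes, against 5.41, 0.164 and 3.86 FPKM in microglia, and Ptpn11, the phosphatase SHP2, had 0.859 and 0.0205 FPKM in monocytes, against 2.05, 4.63 and 0.272 FPKM in microglia. Their adjusted p from edgeR lay between 0.231 and 0.536.

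Of the 19 regulators of Fc gamma receptor transcription, 18 were tested, with a median log2 fold change of -0.11. Tgfb1, a cytokine that restrains macrophage activation, had 274.5 and 186 FPKM in monocytes, against 51.1, 6.99 and 83.9 FPKM in microglia, and both monocyte libraries were above every microglia library. Its log2 fold change was 6.26 with a standard error of 2.65 (edgeR adjusted p = 0.278, limma-voom adjusted p = 0.0498). Ifngr2, a chain of the receptor for interferon gamma, which induces Fcgr1, had 0.353 and 268 FPKM in monocytes, against 60.1, 20.7 and 1.13 FPKM in microglia. Jak1, a kinase of that receptor, had 0.364 and 157 FPKM in monocytes, against 40.9, 19.9 and 50.7 FPKM in microglia. Both were lowest in monocyte library 1. Over the 5953 tested genes with a count in both monocyte libraries, the median log2 ratio of library 1 over library 2 was -1.07. A link of these genes to the level of Fcgr1 was not tested. Irf8, a myeloid transcription factor, had 10.99 and 40.9 FPKM in monocytes, against 90.5, 39.1 and 2.94 FPKM in microglia. Stat6 had 0.332 and 0.314 FPKM in monocytes, against 17.6, 29.2 and 49.2 FPKM in microglia, and Il10rb, a chain of the interleukin 10 receptor, had 0.0768 and 0.121 FPKM in monocytes, against 7.17, 13.3 and 22.7 FPKM in microglia. With TMM the log2 fold change of Irf8 was 2.81, although its mean FPKM was lower in monocytes. The fold change was 4.76 for Ifngr2, 3.03 for Jak1, -2.94 for Stat6 and -4.08 for Il10rb. The adjusted p of these other regulators from edgeR lay between 0.330 and 0.535.

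**Figure D5:**
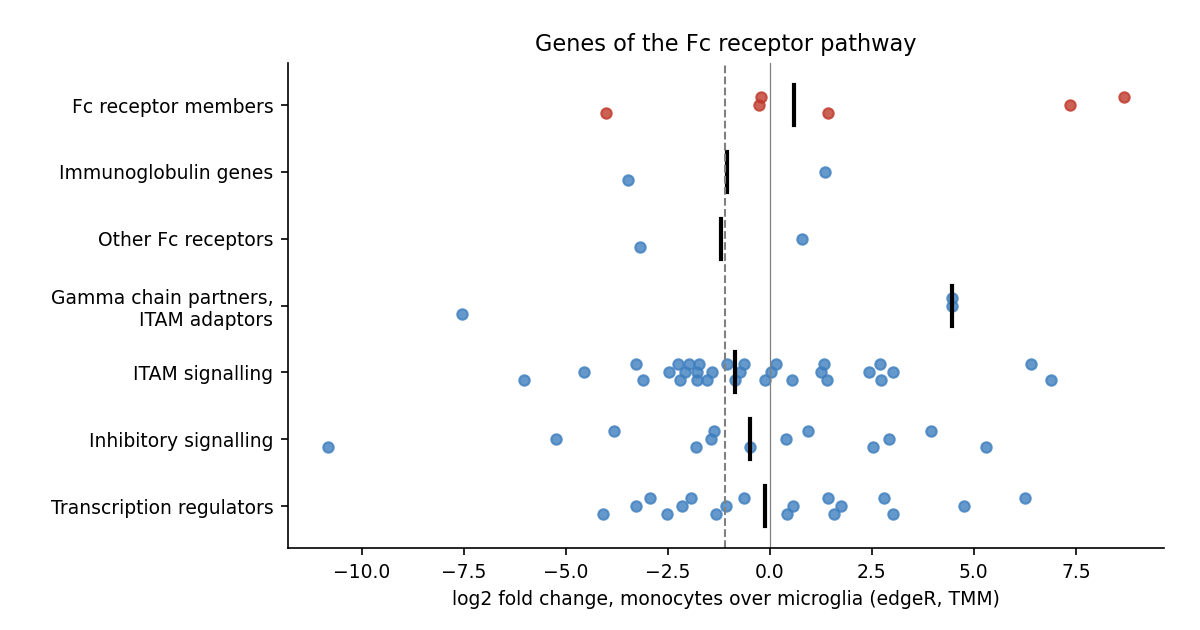
Log2 fold change of monocytes over microglia (edgeR, TMM) for the tested genes of each list (points), with the list's median (black bar) and the median of all genes tested (dashed line, -1.11). The members lie between -4.02 (Fcgr4) and 8.68 (Fcgrt), and none of the points was called.

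The genes most like each member were found by the root mean square difference of log2(CPM + 1), centred on each gene's mean, over the 5 libraries and 8652 genes. With so few libraries many genes share a pattern, so this is a description only. Nearest to Fcgr1 were Dr1 (0.282), Arid4b (0.337) and Uhrf2 (0.491), and no other gene was within 0.5. Nearest to Fcgrt were Prim1 (0.359), Gtf2a1 (0.383) and Zfp280b (0.483), with 4 genes within 0.5. Nearest to Fcgr3 were Apobec1 (0.044), Strn (0.202) and Prpf38b (0.228), with 34 genes within 0.5. Nearest to Fcgr2b were Slc43a3 (0.163) and Txndc15 (0.248), with 13 genes within 0.5. Nearest to Fcer1g were Timp2 (0.118), Tra2a (0.184) and Sec62 (0.191), with 104 genes within 0.5. Nearest to Fcgr4 were Dnajc28 (0.0813), Cwc15 (0.0912) and Rps6ka5 (0.0923), with 246 genes within 0.5. Fcgr1 and Fcgrt thus had the fewest genes of like pattern and Fcgr4 the most. No other member was among the 3 nearest genes of any member.

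Marker lists of other cell types differed in how much they held. The 8 natural killer cell markers summed to 0 to 0.585 CPM in monocytes, against 0 to 1.66 CPM in microglia. The 7 border macrophage markers summed to 0 to 0.614 CPM in monocytes, against 3.91 to 8.74 CPM in microglia, with Lyve1 and Cbr2 at 0 throughout. The 10 neutrophil markers summed to 5.56 to 218 CPM in monocytes, against 206 to 816 CPM in microglia, nearly all of it Csf3r, while Ly6g, Mmp8, Mmp9, Camp and Retnlg were at 0 throughout. The 7 dendritic cell markers summed to 8.19 to 405 CPM in monocytes, against 487 to 1259 CPM in microglia, where Siglech, which microglia also express, gave most counts in every library but monocyte library 1. The 9 endothelial markers summed to 1.76 to 492 CPM in monocytes, against 10.7 to 97.4 CPM in microglia, with Flt1 giving most counts in monocyte library 2, and Ly6c1 and Slco1c1 at 0. The part of other cells in the members' values was not tested.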

How the data were processed

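CD45hi monocytes (2 libraries) and CD45lo microglia (3 libraries) from lesions at 10 dpl were compared. The authors amplified the RNA, aligned reads with STAR (2.5.2a in the submitters' notes, GRCm38) and counted them on GENCODE vM12. The counts are as deposited by the authors, read pairs per gene without scaling. The FPKM deposited by the authors were per kilobase and library total; checked against the counts of the members, no TMM factor enters. The deposited score is log2 CPM after TMM and voom. Columns of samples not covered here (4 in each of 3 tables) were left aside. Both tables of the authors' own comparisons, which hold fold changes and p-values, were not used.

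edgeR 4.0.16 (R 4.3.3; quasi-likelihood test, TMM, expression filter by group) tested 10105 genes with Benjamini-Hochberg adjustment. The standard errors given with its fold changes are approximate. Each was taken as the absolute log2 fold change over the square root of the F statistic of the test. The study itself used limma-voom. Alternatives were limma 3.58.1 (voom), DESeq2 1.42.0, library totals, RLE factors, TMM on genes with 10 or more counts throughout, no filter, CPM above 1 in 2 libraries, and leaving out each library. For the limits of Hcst and Cd300lf, leaving out microglia libraries was chosen after seeing the data. Ratios used FPKM + 1 and exact permutation tests, with Python 3.11.15, scipy 1.17.1, numpy 2.4.6, matplotlib 3.10.9 and pandas 2.3.3. For genes with no count the limit was 3 counts (0.333 to 0.878 CPM by library), and intervals and limits cover counting error only. They do not cover loss of RNA before sequencing, and the paper reports far fewer monocytes than microglia per mouse. The members and lists were chosen with earlier results of these data known. All 6 members were named, with up to 6 genes per list of the smallest p, any called by edgeR, the 3 genes of nearest pattern to each member (leaving out Gm, Rik and -ps symbols) and the markers that define other cells. Igkc, the IgG genes, Cd44, Fn1, Ifitm3, Vcan, Fcer1a, Ms4a2, Cd247, Clec4d, Clec4n, Cd79b and Cr2 were named after their values were seen. Values of some single genes that these rules would name are not reported here. Coordinates are from GENCODE vM21 and promoters from RefSeq (GRCm38.p6).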

Additional observations from a re-analysis of the deposited data

How the results depend on the processing

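No paired analysis was possible because the populations share no replicate number. Without monocyte library 1, Fcgr1 (-4.34), Fcgrt (-3.55) and Fcgr3 (0.090) changed sign. DESeq2 called Fcgr1 (7.22) and Fcgrt (8.79), and leaving out each library gave -4.34 to 7.95 for Fcgr1 (7.33 without monocyte library 2), -3.55 to 8.70 for Fcgrt and -2.29 to 0.090 for Fcgr3. Fcgr3 was 0.70 with DESeq2 and 0.69 with RLE factors, and Fcer1g was 0.37 with both. Fcgr2b was -1.28 with library totals and -0.25 with TMM on genes with 10 counts in every library. The number of members called higher was 2 with DESeq2 and 0 to 2 on leaving out each library. Pathway genes called higher numbered 1 with limma-voom (Tgfb1), 8 with DESeq2, 1 without a filter (Vav3) and 0 to 3 on leaving out each library, and those called lower 1 with DESeq2. By TMM-scaled CPM and by the deposited log2 CPM, 1 member was lower and 1 higher in both monocyte libraries. Leaving out each library gave -2.26 to 5.07 for activating over inhibitory receptors, -0.61 to 7.50 for activating receptors over gamma chain and -2.43 to 4.03 for Fcgrt over B2m, which was -0.089 with counts plus 1. Of 157 alternative values, 126 kept their direction and call, or lay within 1.5 times for counts and limits. Over all genes, edgeR called 6, limma-voom 32, DESeq2 1087, no filter 70, CPM above 1 in 2 libraries 14, TMM on genes with 10 counts 3 and library totals 0. Without monocyte library 1 or 2 it called 343 and 326, and without any 1 microglia library 0. Leaving out a monocyte library leaves 1, which is assumed to vary like microglia.

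Only 1 count or none lies behind the low monocyte values of Fcgr4 and Fcgrt. With 2 libraries that differ this widely, a missed threshold does not show that the populations are alike.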
